A study of Homo sapiens with 10 samples.

Results

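Transcripts of glycolysis and of the hypoxia response were followed through DDX41 knockdown in U2OS, an established line of human osteosarcoma cells. The 36 genes, out of 63299 in the count tables, were taken from a list of symbols that comprises 18 glycolytic enzymes, 5 enzymes that switch glycolytic flux, 5 genes of the hypoxia-inducible factors (HIF) and their oxygen sensors, and 8 HIF target genes with functions outside glycolysis. All 36 symbols matched 1 Ensembl identifier each, and all 36 passed the filter on low counts, which left 16143 genes. CA9 passed it only through its siCtrl libraries, so that a difference in the direction it showed was a condition of its being tested.

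Glycolysis splits glucose to pyruvate in the cytosol. Hexokinases commit glucose to the pathway, the phosphofructokinase step sets much of its rate, the lower steps yield ATP and NADH, and lactate dehydrogenase turns pyruvate into lactate. When oxygen is low, the prolyl hydroxylases of the EGLN family no longer mark the HIF alpha subunits for VHL-dependent degradation, and HIF alpha with ARNT then activates most glycolytic enzymes along with genes of angiogenesis, pH control, mitophagy and collagen modification. Because that control acts largely on HIF protein, transcripts of the HIF subunits need not follow HIF activity.

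RNA-seq libraries were made from polyadenylated RNA with a stranded kit 48 h after knockdown with pooled siRNAs, 5 with control siRNA (siCtrl) and 5 with siRNA against DDX41 (siDDX41), an RNA helicase. Both groups were the same line in the same medium, and both received siRNA. Totals lay between 23393764 and 24598860 counts per siCtrl library and between 21807041 and 24896398 per siDDX41 library. The labels do not say whether the replicates were separate cultures, so p-values measure only the spread between these libraries. Between any pair of libraries of a group the counts differed beyond sampling noise. In a principal component analysis the first component, with 77.7% of the variance, separated the groups, and siDDX41 replicate 2 stood apart on the second, with 3.44%. Levels are given as CPM, counts scaled by the library size after TMM correction, and genes were called higher or lower at an adjusted p under 0.01 in edgeR's quasi-likelihood test over all 16143 genes.

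DDX41 itself (ENSG00000183258.11, chr5:177511577-177516961, minus strand, GRCh38) stood at 49.1, 49.4, 47.3, 47.2 and 50.5 CPM in siCtrl replicates 1 to 5 and 11.5, 13.7, 12.4, 11.2 and 12.3 CPM in siDDX41 replicates 1 to 5. Each siDDX41 library lay below each siCtrl library (log2 fold change -1.99, SE 0.049, edgeR adjusted p = 4.47e-24), as the labels state.

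Markers of bone cells were mixed with respect to the label of the line. SPARC and COL1A1, matrix genes of osteoblasts, were abundant at 2807 and 1875 CPM on average in siCtrl, and RUNX2 and ALPL were present, while SP7, TWIST1 and COL1A2 had less than 1 CPM on average in both groups. Of the 8 genes of this list 5 were tested, of which 1 was called higher and 3 lower (5 and 0 when scaled to GAPDH). The blood cell markers were at or near 0, with a sum below 1 CPM in each library and no count for CD3E and HBB.

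Across the members, 18 were called higher in siDDX41, 12 lower and 6 neither way. Of all genes tested, 30.3% were called higher and 32.1% lower, so 62.4% were called in either direction, against 30 of the 36 members. Without CA9 the split was 18 higher and 11 lower of 35. Without siDDX41 replicate 2 it was 17 higher and 12 lower. Scaled to GAPDH, an alternative chosen after the fall of that gene was seen, the fold changes of all genes moved up by a median of 1.10 on the log2 scale, and 33 members were called higher and 1 lower, with 89.6% of all genes higher and 2.59% lower. ALDOC, PGK1, ENO2, PDK3, PFKFB2, PFKFB4, HIF1A, EPAS1, BNIP3L and VEGFA, lower under TMM, had fold changes above 0 under that scaling. Directions in the text are those under TMM, and the counts of lists under GAPDH scaling stand in parentheses. The count called in each list of the text is to be read beside these shares of all genes. In 28 of the 36 the 5 siDDX41 libraries did not overlap the 5 siCtrl libraries, which was so for 55.9% of all genes tested. Most shifts were small: 8 of the called members changed by at least 0.5 on the log2 scale, as did 25.5% of all genes tested, and the median log2 fold change was 0.09 over the members and 0.00 over all genes. A bulk library cannot tell fewer cells with a transcript from less of it per cell.

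The hexokinases catalyse the first step, and HKDC1 is a later described relative of the classical isoforms. HKDC1 stood at 2.25, 3.27, 2.06, 2.40 and 2.29 CPM in siCtrl replicates 1 to 5 and 13.5, 8.82, 11.97, 12.6 and 9.88 CPM in siDDX41 replicates 1 to 5. The groups did not overlap, siCtrl replicate 2 was the highest control, and siDDX41 replicates 2 and 5 were the lowest after DDX41 knockdown (log2 fold change 2.21, SE 0.14, edgeR adjusted p = 9.72e-11). This was a 4.62-fold higher level, from 49 to 80 counts per siCtrl library to 203 to 297 counts per siDDX41 library.

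HK2, the isoform that HIF and growth signals induce, stood at 22.5, 24.4, 22.2, 18.9 and 19.995 CPM in siCtrl replicates 1 to 5 and 35.5, 32.4, 34.8, 34.8 and 30.5 CPM in siDDX41 replicates 1 to 5. All siDDX41 libraries lay above all siCtrl libraries (log2 fold change 0.64, SE 0.058, edgeR adjusted p = 3.72e-10). HK1, the isoform found in most tissues, stood at 231, 221, 217, 227 and 217 CPM in siCtrl replicates 1 to 5 and 227, 223, 241, 232 and 237 CPM in siDDX41 replicates 1 to 5. Its groups overlapped, and it was not called (log2 fold change 0.06, SE 0.028, edgeR adjusted p = 0.0644).

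Per length, the order of the hexokinases was the same in both groups. HK1 had 32.4 ± 0.903 CPM per kb in siCtrl and 33.7 ± 1.10 CPM per kb in siDDX41, from counts divided by the kilobases of its exons. HK2 had 3.65 ± 0.368 CPM per kb in siCtrl and 5.68 ± 0.353 CPM per kb in siDDX41. HKDC1 had 0.581 ± 0.111 CPM per kb in siCtrl and 2.69 ± 0.463 CPM per kb in siDDX41. The order was therefore HK1, HK2 and HKDC1 in either group, with no overlap between neighbours. As a share of the summed length-scaled level of these 3 genes, HKDC1 held 1.40, 2.09, 1.36, 1.54 and 1.53% in siCtrl replicates 1 to 5 and 7.60, 5.22, 6.47, 7.001 and 5.57% in siDDX41 replicates 1 to 5. HK1 remained the main transcript, with 88.5 ± 1.11% in siCtrl and 80.1 ± 1.55% in siDDX41 (SD, n = 5).

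HKDC1 and HK1 are neighbours (ENSG00000156510.12, chr10:69220332-69267552, plus strand and ENSG00000156515.21, chr10:69269984-69401884, plus strand, GRCh38), with 2431 bases between the end of HKDC1 and the start of HK1 in GENCODE release 44. The ratio of their counts in each library rose from -6.51 ± 0.25 in siCtrl to -4.37 ± 0.25 in siDDX41 on the log2 scale. HKDC1 also rose relative to HK2, by 1.56, and HK2 relative to HK1, by 0.58. These ratios, of 13 pairs of related genes compared, each gave an adjusted p = 0.0115 in an exact two-sided permutation test, whose smallest possible p in 5 against 5 libraries is 0.00794.

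Promoters of members were read from RefSeq (GRCh38.p14; 250 bases before to 50 after each listed start), where 32 of the 36 members matched, and searched on both strands for the HIF core motifs ACGTG and GCGTG. The stretches just before the listed starts of HK2 at chr2:74834007-74834126 (plus strand), HKDC1 at chr10:69220212-69220331 (plus strand), LDHA at chr11:18394443-18394559 (plus strand), EGLN1 at chr1:231422288-231422407 (minus strand) and GAPDH at chr12:6535144-6535263 (plus strand) are printed 5′ to 3′, up to the first annotated exon base. They were chosen after calls and motifs were seen (the first 4 genes were called higher and GAPDH lower), and capitals mark each match to either motif. Of the other called members with a stretch of this kind, PFKL, PFKP and PDK1 (higher) and PGK1 and HIF1A (lower) held neither motif there, and EPAS1 (lower) held GCGTG. Where CACGTG stands, ACGTG matches on both strands and the letters also form an E-box, the site of MYC and related factors.
HK2: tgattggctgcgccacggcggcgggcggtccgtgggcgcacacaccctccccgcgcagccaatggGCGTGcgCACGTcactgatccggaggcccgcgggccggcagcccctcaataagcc
HKDC1: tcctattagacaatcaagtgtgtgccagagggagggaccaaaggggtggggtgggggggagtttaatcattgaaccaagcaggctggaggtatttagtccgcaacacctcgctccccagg
LDHA: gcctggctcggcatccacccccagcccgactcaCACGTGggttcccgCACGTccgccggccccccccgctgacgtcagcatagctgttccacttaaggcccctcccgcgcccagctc
EGLN1: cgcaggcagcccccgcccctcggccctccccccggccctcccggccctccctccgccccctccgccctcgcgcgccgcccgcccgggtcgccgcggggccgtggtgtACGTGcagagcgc
GAPDH: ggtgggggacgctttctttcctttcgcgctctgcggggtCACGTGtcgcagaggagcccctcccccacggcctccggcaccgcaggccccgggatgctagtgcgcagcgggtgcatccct
The HKDC1 stretch held neither motif, while its whole window of 300 bases held GCGTG once. The GAPDH stretch lies inside the gene as annotated in GENCODE and overlaps none of its exons, since the RefSeq table lists a start downstream of the gene's first base.

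Over the whole 300 bases, ACGTG occurred in 14 of the 32 members (43.8%) and in 21.6% of the 27305 promoters in the table, and GCGTG in 16 members (50%) and 36.3% of all promoters. CACGTG was present in 5 members (15.6%) and 7.43% of all promoters. Either core motif was found in 12 of the 17 matched promoters of members called higher and in 9 of the 9 matched promoters of members called lower. The share was 48.4% over all promoters. Without a matched promoter were PFKFB2, BNIP3L and VEGFA, called lower, and NDRG1, called higher. The 9 called lower include CA9, for which a fall was a condition of its being tested. Among enzymes the share was 13 of 18, and it was 5 of the 5 matched HIF targets outside glycolysis. A match describes the letters in this window only.

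The upper steps turn glucose 6-phosphate into triose phosphates. Of their 7 genes, 5 were called higher (GPI, PFKL, PFKP, ALDOA and TPI1, with log2 fold changes of 0.13 to 0.22), ALDOC was called lower (7 and 0 when scaled to GAPDH), and PFKM was not called (log2 fold change -0.02, SE 0.033, edgeR adjusted p = 0.627). ALDOA, the aldolase of muscle and most cultured cells, stood at 752, 775, 674, 688 and 730.4 CPM in siCtrl replicates 1 to 5 and 840.3, 816, 863, 843 and 868 CPM in siDDX41 replicates 1 to 5. The groups did not overlap (log2 fold change 0.22, SE 0.032, edgeR adjusted p = 6.86e-07).

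ALDOC, the aldolase of brain, stood at 12.4, 11.6, 11.1, 10.7 and 12.4 CPM in siCtrl replicates 1 to 5 and 7.04, 6.95, 6.73, 7.75 and 7.79 CPM in siDDX41 replicates 1 to 5. Every siDDX41 library lay below every siCtrl library (log2 fold change -0.68, SE 0.07, edgeR adjusted p = 6.38e-10). The count ratio of ALDOC to ALDOA fell from -5.96 ± 0.07 in siCtrl to -6.86 ± 0.09 in siDDX41 on the log2 scale (exact permutation test, adjusted p = 0.0115). Per length, ALDOA had 189 ± 11.2 CPM per kb in siCtrl and 221 ± 5.45 CPM per kb in siDDX41, and ALDOC 4.45 ± 0.303 CPM per kb in siCtrl and 2.78 ± 0.186 CPM per kb in siDDX41.

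Among the phosphofructokinases, PFKP had 75.5 ± 4.54 CPM in siCtrl and 87.5 ± 2.56 CPM in siDDX41 (SD, n = 5; log2 fold change 0.21, SE 0.036, edgeR adjusted p = 6.13e-06). PFKL had 100.4 ± 9.80 CPM in siCtrl and 115 ± 3.47 CPM in siDDX41 with overlapping groups (log2 fold change 0.19, SE 0.054, edgeR adjusted p = 0.00533). The call of PFKL was lost when libraries were scaled to their totals and when siCtrl replicate 1 or siDDX41 replicate 2, 3, 4 or 5 was left out, with log2 fold changes of 0.18 to 0.21 there. The ratio of PFKP to PFKL was -0.41 ± 0.10 in siCtrl and -0.39 ± 0.04 in siDDX41 on the log2 scale (exact permutation test, adjusted p = 0.825). That of PFKM to PFKL was 0.14 ± 0.20 and -0.08 ± 0.06 (exact permutation test, adjusted p = 0.103), and it passed the threshold without siCtrl replicate 2, at -0.28. PFKM shares 7.12% of its exon bases with SENP1 on the opposite strand.

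In the lower steps, which lead from glyceraldehyde 3-phosphate to pyruvate, 3 genes were called higher (PGAM1, ENO1 and PKM) and 3 lower (GAPDH, PGK1 and ENO2; 5 and 0 when scaled to GAPDH). GAPDH (ENSG00000111640.14, chr12:6534512-6538374, plus strand, GRCh38), the dehydrogenase of this pathway and a common reference gene, stood at 7302, 7205, 6773, 6986 and 7061 CPM in siCtrl replicates 1 to 5 and 3085, 3259.7, 3241, 3491 and 3445 CPM in siDDX41 replicates 1 to 5. The siDDX41 libraries lay far below the siCtrl libraries and close to each other (log2 fold change -1.10, SE 0.03, edgeR adjusted p = 3.67e-22), a 2.14-fold lower level.

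GAPDH was the second most counted gene of the table in each siCtrl library. Its rank there was 2, and in siDDX41 replicates 1 to 5 it was 12, 9, 9, 7 and 8. Of the 68 genes tested with at least 1000 CPM on average in siCtrl, 22 were called lower and 26 higher, and GAPDH was the only 1 that fell by 1 or more on the log2 scale. The next lowest were IGFBP5, at -0.89, and EIF4G2, at -0.86. GAPDH has 65 annotated pseudogenes, whose summed counts came to 0.075% of its own.

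ENO2, the enolase of neurons, stood at 146, 136, 132, 129 and 133 CPM in siCtrl replicates 1 to 5 and 73.01, 74.003, 72.7, 68.2 and 69.4 CPM in siDDX41 replicates 1 to 5. It fell in all siDDX41 libraries relative to all siCtrl libraries (log2 fold change -0.92, SE 0.034, edgeR adjusted p = 7.47e-20). ENO1, the enolase of most cells, moved the other way, with 2901 ± 123 CPM in siCtrl and 3516 ± 104 CPM in siDDX41 (SD, n = 5; log2 fold change 0.28, SE 0.028, edgeR adjusted p = 5.29e-10). The ratio of ENO2 to ENO1 counts fell from -4.43 ± 0.05 in siCtrl to -5.62 ± 0.09 in siDDX41 on the log2 scale (exact permutation test, adjusted p = 0.0115).

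PKM, the pyruvate kinase of the last step, had 3598 ± 99.5 CPM in siCtrl and 4766 ± 107 CPM in siDDX41 (SD, n = 5; log2 fold change 0.41, SE 0.025, edgeR adjusted p = 7.08e-15), without overlap. Gene-level counts do not separate its isoforms M1 and M2. PGK1, which yields the first ATP of the pathway, had 714 ± 22.9 CPM in siCtrl and 656 ± 19.8 CPM in siDDX41 (log2 fold change -0.12, SE 0.027, edgeR adjusted p = 0.000249), and PGAM1 had 82.3 ± 5.53 CPM in siCtrl and 90.7 ± 2.92 CPM in siDDX41 with overlapping groups (log2 fold change 0.14, SE 0.038, edgeR adjusted p = 0.00196). GAPDH, TPI1 and ENO2 lie in 1 region of chromosome 12 on the same strand, with 328744 bases between GAPDH and TPI1 and 42796 between TPI1 and ENO2. TPI1, between the 2 that fell, was called higher (log2 fold change 0.13, SE 0.027, edgeR adjusted p = 6.39e-05).

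The lactate dehydrogenases exchange pyruvate and lactate. LDHA stood at 1397, 1382, 1339, 1335 and 1312 CPM in siCtrl replicates 1 to 5 and 1560.2, 1464, 1585, 1592 and 1575 CPM in siDDX41 replicates 1 to 5. LDHB stood at 1038, 1024, 997, 1058 and 1017 CPM in siCtrl replicates 1 to 5 and 1175, 1072, 1173, 1179.7 and 1175 CPM in siDDX41 replicates 1 to 5. In both genes the groups did not overlap and siDDX41 replicate 2 was the lowest of its group.

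Both lactate dehydrogenase genes were called higher, LDHA with log2 fold change 0.20, SE 0.027, edgeR adjusted p = 9.83e-08 and LDHB with log2 fold change 0.17, SE 0.028, edgeR adjusted p = 3.17e-06. Their ratio was 0.40 ± 0.04 in siCtrl and 0.43 ± 0.02 in siDDX41 on the log2 scale (exact permutation test, adjusted p = 0.225).

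Taking the 18 enzymes as a group, 12 were called higher, 4 lower and 2 neither (17, 0 and 1 when scaled to GAPDH), with a median log2 fold change of 0.17. Their summed level was nevertheless lower after DDX41 knockdown, at 19943, 19632, 18455, 19020.2 and 19143 CPM in siCtrl replicates 1 to 5 and 17525, 17186, 17609, 18282 and 18197 CPM in siDDX41 replicates 1 to 5. Without GAPDH the sum was higher after knockdown, at 12641, 12426, 11681, 12034 and 12082 CPM in siCtrl and 14439.6, 13926, 14368, 14791 and 14751 CPM in siDDX41. Neither sum overlapped between the groups. GAPDH made up 36.7 ± 0.0989% of the sum in siCtrl and 18.6 ± 0.616% in siDDX41 (SD, n = 5). These sums describe the libraries and were not tested.

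Mitochondrially encoded transcripts, which serve respiration, moved with the groups and held 1.18, 0.876, 1.18, 1.34 and 1.14% of the counts of siCtrl replicates 1 to 5 and 1.88, 1.70, 1.69, 1.64 and 1.64% of those of siDDX41 replicates 1 to 5. Of the 13 genes, 11 were called higher and 0 lower (13 and 0 when scaled to GAPDH), against 30.3% and 32.1% of all genes tested. None was at 0, and MT-CO1 was the most abundant, at 2962 CPM in siCtrl and 4607 CPM in siDDX41 on average. Their part in the shifts of the enzymes was not tested.

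The switches set flux without being steps of the pathway. PDK1 and PDK3 phosphorylate pyruvate dehydrogenase and so hold back the conversion of pyruvate to acetyl-CoA, and the PFKFB enzymes make or remove fructose 2,6-bisphosphate, an activator of phosphofructokinase. Of these 5 genes PDK1 was called higher, PDK3, PFKFB2 and PFKFB4 lower (4 and 0 when scaled to GAPDH), and PFKFB3 was not called (log2 fold change -0.10, SE 0.04, edgeR adjusted p = 0.0341). PFKFB3 passed the threshold when siCtrl replicate 3 was left out, at -0.12.

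PDK3 stood at 11.4, 11.5, 12.1, 12.4 and 12.1 CPM in siCtrl replicates 1 to 5 and 5.80, 6.86, 5.80, 6.13 and 6.39 CPM in siDDX41 replicates 1 to 5. The groups lay apart (log2 fold change -0.94, SE 0.068, edgeR adjusted p = 3.91e-13). PFKFB4, a HIF target, stood at 21.3, 21.5, 20.7, 20.2 and 20.2 CPM in siCtrl replicates 1 to 5 and 12.8, 12.4, 11.7, 10.9 and 12.2 CPM in siDDX41 replicates 1 to 5, also without overlap (log2 fold change -0.79, SE 0.054, edgeR adjusted p = 8.75e-14). It shares 4.88% of its exon bases with UCN2 on the same strand, which had 6.76% as many counts.

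PDK1, a HIF target as well, had 12.8 ± 0.805 CPM in siCtrl and 15.8 ± 0.683 CPM in siDDX41 (SD, n = 5; log2 fold change 0.30, SE 0.057, edgeR adjusted p = 3.62e-05). PDK1 and PDK3 moved in opposite directions, and their ratio rose from 0.10 ± 0.13 in siCtrl to 1.34 ± 0.11 in siDDX41 on the log2 scale (exact permutation test, adjusted p = 0.0115). PFKFB2 had 44.7 ± 2.61 CPM in siCtrl and 34.6 ± 1.43 CPM in siDDX41 (log2 fold change -0.37, SE 0.043, edgeR adjusted p = 8.47e-09). PFKFB2 shares 3.10% of its exon bases with YOD1, a gene of the opposite strand with 197% of its counts, called higher at 0.70. The ratio of PFKFB4 to PFKFB3 fell from -1.18 ± 0.08 in siCtrl to -1.88 ± 0.13 in siDDX41 on the log2 scale (exact permutation test, adjusted p = 0.0115).

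Among the HIF subunits and sensors, 2 were called higher (ARNT and EGLN1), 2 lower (HIF1A and EPAS1; 5 and 0 when scaled to GAPDH), and EGLN3 was not called (log2 fold change -0.05, SE 0.077, edgeR adjusted p = 0.554). HIF1A, the alpha subunit found in most cells, stood at 427, 411, 408, 412 and 402 CPM in siCtrl replicates 1 to 5 and 340.0, 322, 343, 343 and 313 CPM in siDDX41 replicates 1 to 5. The siDDX41 libraries all lay below the siCtrl libraries (log2 fold change -0.31, SE 0.029, edgeR adjusted p = 7.16e-11). EPAS1, which encodes HIF-2 alpha, stood at 13.1, 14.04, 14.8, 13.2 and 14.95 CPM in siCtrl replicates 1 to 5 and 12.2, 11.6, 10.8, 12.1 and 11.96 CPM in siDDX41 replicates 1 to 5. Its groups also lay apart, by less than 1 CPM between the nearest libraries (log2 fold change -0.26, SE 0.06, edgeR adjusted p = 0.000356).

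Relative to each other the alpha subunits were -4.88 ± 0.12 in siCtrl and -4.82 ± 0.10 in siDDX41 (log2 ratio of EPAS1 to HIF1A; exact permutation test, adjusted p = 0.473). Per length, HIF1A had 80.01 ± 1.76 CPM per kb in siCtrl and 64.5 ± 2.69 CPM per kb in siDDX41, and EPAS1 1.92 ± 0.118 CPM per kb in siCtrl and 1.61 ± 0.0744 CPM per kb in siDDX41. ARNT, the shared beta subunit, had 83.01 ± 2.03 CPM in siCtrl and 91.5 ± 3.17 CPM in siDDX41 (SD, n = 5; log2 fold change 0.14, SE 0.032, edgeR adjusted p = 0.000244).

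EGLN1, which encodes PHD2, the main oxygen sensor of this pathway and itself a HIF target, stood at 54.3, 53.9, 54.7, 52.7 and 51.9 CPM in siCtrl replicates 1 to 5 and 72.8, 66.9, 69.2, 73.8 and 65.1 CPM in siDDX41 replicates 1 to 5. All siDDX41 libraries lay above all siCtrl libraries (log2 fold change 0.38, SE 0.037, edgeR adjusted p = 2.34e-10). EGLN3, another HIF target, had 6.75 ± 0.297 CPM in siCtrl and 6.50 ± 0.528 CPM in siDDX41, and the ratio of EGLN3 to EGLN1 fell from -2.98 ± 0.09 in siCtrl to -3.42 ± 0.15 in siDDX41 on the log2 scale (exact permutation test, adjusted p = 0.0115).

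Of the 8 HIF targets outside glycolysis, 3 were called higher (BNIP3, NDRG1 and P4HA1), 3 lower (CA9, BNIP3L and VEGFA) and 2 neither (ANKRD37 and ADM; 7, 1 and 0 when scaled to GAPDH). CA9, a carbonic anhydrase at the cell surface and a widely used hypoxia marker, stood at 1.31, 1.47, 0.631, 0.642 and 0.958 CPM in siCtrl replicates 1 to 5 and 0.184, 0.261, 0.161, 0.170 and 0.128 CPM in siDDX41 replicates 1 to 5. Its libraries did not overlap, but held only 15 to 36 counts each in siCtrl and 3 to 6 in siDDX41 (log2 fold change -2.45, SE 0.32, edgeR adjusted p = 7.48e-08). CA9 shares 35.7% of its exon bases with ARHGEF39 on the opposite strand, which had 65.8 ± 1.91 CPM in siCtrl and 41.1 ± 1.82 CPM in siDDX41 and was called lower (log2 fold change -0.68, SE 0.037, edgeR adjusted p = 4.72e-16). Since the strand setting of the counting is not given in the sources used here, reads of these genes cannot be told apart, and the value for CA9 is uncertain.

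BNIP3L and BNIP3 encode related receptors of mitophagy. BNIP3L stood at 241, 236, 241, 233 and 235 CPM in siCtrl replicates 1 to 5 and 200.1, 203, 202, 206 and 202 CPM in siDDX41 replicates 1 to 5. The groups did not overlap (log2 fold change -0.23, SE 0.025, edgeR adjusted p = 3.85e-09). BNIP3 moved the other way, with 18.7 ± 1.51 CPM in siCtrl and 24.3 ± 1.86 CPM in siDDX41 (SD, n = 5; log2 fold change 0.38, SE 0.058, edgeR adjusted p = 1.35e-06), and the ratio of BNIP3 to BNIP3L rose from -3.67 ± 0.11 in siCtrl to -3.06 ± 0.11 in siDDX41 on the log2 scale (exact permutation test, adjusted p = 0.0115). BNIP3L shares 7.95% of its exon bases with PNMA2 on the opposite strand, which was called lower at -0.54.

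P4HA1, a subunit of the enzyme that hydroxylates collagen, stood at 136, 136, 136, 129 and 138 CPM in siCtrl replicates 1 to 5 and 164, 152, 162, 165 and 170.1 CPM in siDDX41 replicates 1 to 5. Each siDDX41 library exceeded each siCtrl library (log2 fold change 0.27, SE 0.03, edgeR adjusted p = 4.93e-09). VEGFA, the angiogenic growth factor, had 45.5 ± 0.399 CPM in siCtrl and 41.96 ± 1.04 CPM in siDDX41 (SD, n = 5; log2 fold change -0.12, SE 0.035, edgeR adjusted p = 0.00413). Its call was lost in DESeq2, without the filter on low counts, and without siCtrl replicate 5, siDDX41 replicate 3 or siDDX41 replicate 4, at log2 fold changes of -0.11 to -0.10.

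NDRG1, a stress-responsive gene, had 135 ± 3.47 CPM in siCtrl and 148 ± 3.13 CPM in siDDX41 (log2 fold change 0.13, SE 0.028, edgeR adjusted p = 0.00017). ADM, the vasodilator adrenomedullin, had 1.67 ± 0.285 CPM in siCtrl and 1.46 ± 0.198 CPM in siDDX41 with overlapping groups (log2 fold change -0.20, SE 0.16, edgeR adjusted p = 0.259). ANKRD37 had 2.74 ± 0.262 CPM in siCtrl and 2.83 ± 0.364 CPM in siDDX41 (log2 fold change 0.04, SE 0.12, edgeR adjusted p = 0.744), and shares 40.3% of its exon bases with UFSP2 on the opposite strand, which had 1478% of its counts, so its value is uncertain as well.

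Set side by side, 16 of the 18 enzymes and 6 of the 8 HIF targets outside glycolysis were called, against 62.4% of all genes tested. Median log2 fold changes were 0.17 and -0.04, and 0.00 over all genes tested. The count and median of the targets include CA9, for which a fall was a condition of its being tested. Without CA9 the median of the targets was the value of ANKRD37, at 0.04. The mean log2(CPM + 0.5) of the enzymes was 7.997, 8.02, 7.89, 7.91 and 7.94 in siCtrl replicates 1 to 5 and 8.08, 8.01, 8.07, 8.09 and 8.07 in siDDX41 replicates 1 to 5. That of the HIF targets outside glycolysis was 4.45, 4.47, 4.37, 4.35 and 4.36 in siCtrl and 4.33, 4.30, 4.28, 4.32 and 4.28 in siDDX41. The enzymes thus overlapped between the groups, and the targets lay lower after knockdown.

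The lower mean of the targets rested on CA9. Without it, the mean was 4.96, 4.97, 4.97, 4.95 and 4.90 in siCtrl and 5.03, 4.97, 4.98, 5.02 and 4.99 in siDDX41, with overlap. Both groups of genes held members that moved in opposite directions, the enzymes from -1.10 to 2.21 and the targets from -2.45 to 0.38. These means describe the libraries and were not tested against each other.

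**Figure D1:**
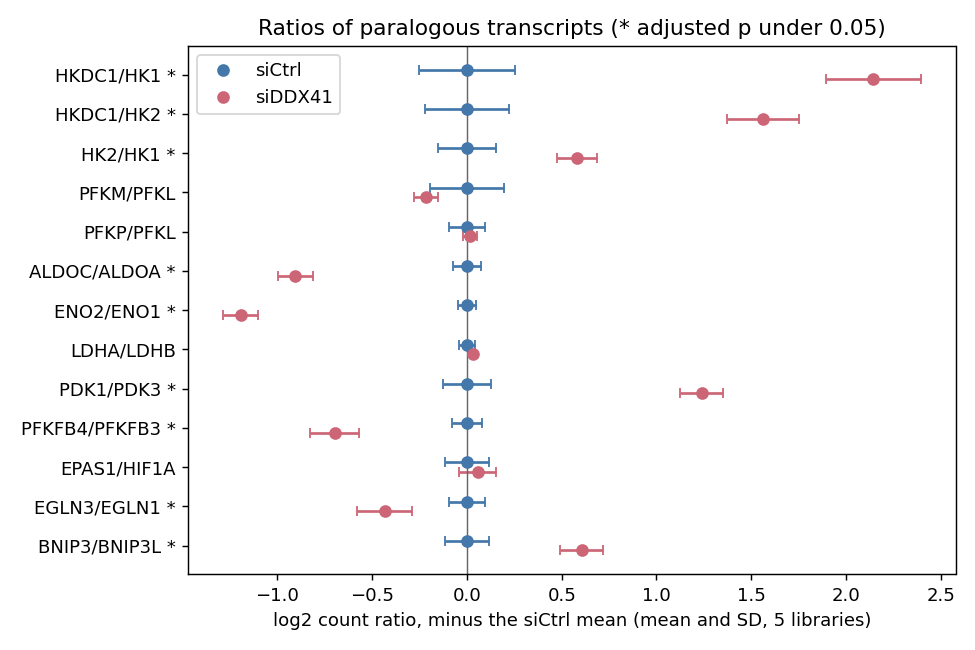
Log2 ratios of the counts of 13 pairs of related genes, as the mean and SD of 5 libraries per group after subtracting the siCtrl mean. In 9 pairs the ratio differed between the groups after adjustment, and PFKM/PFKL, PFKP/PFKL, LDHA/LDHB and EPAS1/HIF1A did not pass.

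Genes next to these pathways were taken from further lists. The counts of each of these lists stand against 30.3% of all genes tested called higher and 32.1% called lower. Of 14 other glycolysis enzymes, mainly tissue-specific isoforms, 5 were tested, with 2 called higher and 1 lower (5 and 0 when scaled to GAPDH). ADPGK, an ADP-dependent glucokinase, had 76.8 ± 1.26 CPM in siCtrl and 62.3 ± 1.90 CPM in siDDX41 (SD, n = 5; log2 fold change -0.30, SE 0.032, edgeR adjusted p = 1.28e-09). LDHC, the lactate dehydrogenase of testis, had 2.33 ± 0.321 CPM in siCtrl and 3.30 ± 0.464 CPM in siDDX41 (log2 fold change 0.50, SE 0.12, edgeR adjusted p = 0.000652), and ENO3, the enolase of muscle, had 28.7 ± 0.847 CPM in siCtrl and 31.7 ± 2.31 CPM in siDDX41 (log2 fold change 0.14, SE 0.047, edgeR adjusted p = 0.00832). PKLR, the pyruvate kinase of liver and red cells, was listed at 0 in each library.

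Of 11 genes of glucose and lactate transport, 9 were tested, with 5 called higher and 4 lower (7 and 2 when scaled to GAPDH). The glucose transporter SLC2A12 had 134 ± 3.94 CPM in siCtrl and 56.9 ± 4.47 CPM in siDDX41 (SD, n = 5; log2 fold change -1.24, SE 0.04, edgeR adjusted p = 4.45e-20), SLC2A10 28.4 ± 1.14 CPM in siCtrl and 11.6 ± 1.29 CPM in siDDX41 (log2 fold change -1.29, SE 0.06, edgeR adjusted p = 9.42e-18) and the insulin-responsive SLC2A4 6.78 ± 0.727 CPM in siCtrl and 3.86 ± 0.465 CPM in siDDX41 (log2 fold change -0.81, SE 0.096, edgeR adjusted p = 1.15e-08). The widely expressed SLC2A1 moved by 0.19 and SLC2A3 by 0.28 on the log2 scale, both called higher. The lactate exporter SLC16A3, a HIF target, was called higher at 0.62. SLC16A1, a lactate transporter, was listed at 0 in each library, which may come from the counting and does not show that it is not expressed.

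Of the 12 genes of the pyruvate dehydrogenase complex, its regulators and pyruvate import, 5 were called higher and 3 lower (11 and 1 when scaled to GAPDH). PDK2, a further kinase of the complex, had 51.7 ± 1.18 CPM in siCtrl and 20.3 ± 1.13 CPM in siDDX41 (SD, n = 5; log2 fold change -1.35, SE 0.042, edgeR adjusted p = 1.08e-21). Its subunit PDHB had 91.2 ± 3.86 CPM in siCtrl and 118 ± 3.30 CPM in siDDX41 (log2 fold change 0.37, SE 0.032, edgeR adjusted p = 1.96e-11), and DLD, the dihydrolipoamide dehydrogenase, had 127 ± 3.59 CPM in siCtrl and 149.7 ± 7.73 CPM in siDDX41 (log2 fold change 0.24, SE 0.033, edgeR adjusted p = 2.14e-07). PDK4 was not called (log2 fold change -0.14, SE 0.11, edgeR adjusted p = 0.27).

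In the pentose phosphate pathway, which branches off at glucose 6-phosphate, 5 of 8 genes were called higher and 1 lower (8 and 0 when scaled to GAPDH). TIGAR, a phosphatase that steers glucose into this branch and a p53 target, had 58.3 ± 2.27 CPM in siCtrl and 94.9 ± 3.02 CPM in siDDX41 (SD, n = 5; log2 fold change 0.70, SE 0.034, edgeR adjusted p = 2.82e-17). PGD, which acts in the oxidative part of the branch, had 283 ± 7.58 CPM in siCtrl and 209 ± 7.48 CPM in siDDX41 (log2 fold change -0.44, SE 0.029, edgeR adjusted p = 3.63e-14).

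Of 11 genes of gluconeogenesis and glycogen, 9 were tested, with 4 called higher and 5 lower (7 and 0 when scaled to GAPDH) and a median of -0.28. PGM1, which links glucose 1-phosphate and glucose 6-phosphate, had 104 ± 2.01 CPM in siCtrl and 48.6 ± 2.03 CPM in siDDX41 (SD, n = 5; log2 fold change -1.09, SE 0.033, edgeR adjusted p = 5.56e-22). GBE1, the glycogen branching enzyme, had 62.04 ± 2.24 CPM in siCtrl and 29.3 ± 2.07 CPM in siDDX41 (log2 fold change -1.08, SE 0.043, edgeR adjusted p = 3.12e-19). The glycogen synthase GYS1 moved in the same direction, at -0.79, and was called lower. PCK2, the mitochondrial phosphoenolpyruvate carboxykinase, had 42.9 ± 2.84 CPM in siCtrl and 82.3 ± 2.54 CPM in siDDX41 (log2 fold change 0.94, SE 0.039, edgeR adjusted p = 1.07e-18).

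Of 12 further regulators of HIF, 11 were tested, with 5 called higher and 4 lower (11 and 0 when scaled to GAPDH). CUL2, the scaffold of the VHL ubiquitin ligase, had 99.5 ± 2.30 CPM in siCtrl and 128 ± 3.81 CPM in siDDX41 (SD, n = 5; log2 fold change 0.36, SE 0.03, edgeR adjusted p = 5.25e-12). ARNT2, a paralog of ARNT, had 32.3 ± 1.64 CPM in siCtrl and 20.5 ± 2.51 CPM in siDDX41 (log2 fold change -0.65, SE 0.063, edgeR adjusted p = 5.52e-09), and the coactivator CREBBP had 151 ± 7.59 CPM in siCtrl and 125 ± 3.85 CPM in siDDX41 (log2 fold change -0.27, SE 0.033, edgeR adjusted p = 2e-08). VHL itself was called lower at -0.13 with overlapping groups.

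Of 24 further HIF targets, 22 were tested, with 8 called higher, 10 lower and 4 neither (20, 1 and 1 when scaled to GAPDH), and a median of -0.08. CA12, like CA9 a carbonic anhydrase at the cell surface, had 65.7 ± 3.81 CPM in siCtrl and 8.49 ± 0.446 CPM in siDDX41 (SD, n = 5; log2 fold change -2.95, SE 0.052, edgeR adjusted p = 4.11e-27). P4HA2, the sister subunit of P4HA1, had 195 ± 5.86 CPM in siCtrl and 112 ± 4.38 CPM in siDDX41 (log2 fold change -0.79, SE 0.031, edgeR adjusted p = 1.55e-19), opposite in direction to P4HA1. BHLHE41, a transcriptional repressor, had 83.7 ± 4.51 CPM in siCtrl and 40.7 ± 2.36 CPM in siDDX41 (log2 fold change -1.04, SE 0.041, edgeR adjusted p = 4.89e-19), while its relative BHLHE40 was not called (log2 fold change -0.03, SE 0.035, edgeR adjusted p = 0.536).

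The collagen lysyl hydroxylases also split, with PLOD1 called lower at -0.58 and PLOD2 called higher at 0.35. The largest rise among these targets was that of STC2, a secreted glycoprotein, at 2.08, from 0.359 ± 0.158 CPM in siCtrl to 1.53 ± 0.187 CPM in siDDX41. STC2 passed the filter on low counts only through its siDDX41 libraries, so that a rise was a condition of its being tested. These members, with PDK4, SLC2A1, SLC2A3, SLC16A3, GYS1, VHL and BHLHE40, were named after their values were seen.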

How the data were processed

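Per the submitters' notes and the study's methods, the deposited values are read counts per gene that the authors obtained with featureCounts 1.6, after alignment with STAR 2.7 (hg38; annotation of Gencode release 25). The strand setting and the treatment of reads with several matches are not given in the sources used here. Identifiers without version were joined to GENCODE release 44 for symbols, positions and exon lengths. Counts were tested with edgeR 4.0.16 under R 4.3.3 (low counts removed by filterByExpr with the groups given, TMM scaling, robust quasi-likelihood fit, Benjamini-Hochberg adjustment over all genes tested), and standard errors were derived from the F statistic. DESeq2 1.42.0 served as an alternative. Ratios of pairs were log2 ratios of counts + 0.5 per library, tested by exact two-sided permutation and adjusted over the 13 pairs at a threshold of 0.05. Both fits were tested on simulated counts. Named were DDX41, HK1, HK2, HKDC1, HIF1A and EPAS1, the 2 members of each role with the smallest adjusted p, each called member that changed by at least 0.5, and up to 3 called genes of each further list, those with the smallest adjusted p. The members and lists were chosen with earlier results of these data known.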

Additional observations from a re-analysis of the deposited data

Results flagged for a closer look

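For DDX41 and the 36 members, the highest and lowest library of each group of 5 was compared with the others by Dixon's gap, and 6 of the 74 groups held a library outside the rest, where chance gives about 1 in 20. HKDC1 in siCtrl replicate 2 stood at 3.27 CPM against 2.06 to 2.40 CPM in the other siCtrl libraries. PFKP in siDDX41 replicate 3 stood at 92.03 CPM against 85.6 to 86.9 CPM in the others of its group. In siDDX41 replicate 2, LDHA stood at 1464 CPM against 1560.2 to 1592 CPM and LDHB at 1072 CPM against 1173 to 1179.7 CPM in the others. NDRG1 in siCtrl replicate 3 stood at 129 CPM against 136 to 138 CPM, and ADM in siCtrl replicate 5 at 1.17 CPM against 1.76 to 1.85 CPM. The calls of HKDC1, PFKP, LDHA, LDHB and NDRG1 held without each of these libraries, and ADM was not called with or without its library.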

How the results depend on the processing

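Across the alternatives fixed before these count tables were opened (DESeq2 size factors, library totals, no filter on low counts, DESeq2's Wald test, the replicate block, an adjusted p under 0.05 and the omission of each library), the members called stayed at 17 to 18 higher and 11 to 13 lower, and no called fold change or pair ratio changed sign (of those not called, PFKM, ANKRD37 and PFKP/PFKL did when 1 library was left out). Of 222 fold changes of DDX41 and the members under the alternatives that kept all libraries, 218 remained on the same side of the threshold, 3 lost the call (PFKL once and VEGFA in 2 settings) and 1, PFKFB3 at an adjusted p under 0.05, gained it. Of 370 with a library left out, 361 remained, 8 lost the call and 1 gained it, all in PFKL, VEGFA and PFKFB3. Over all genes the called counts without 1 library ranged from 4648 to 4823 higher and from 4968 to 5121 lower.

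Scaling each library to its GAPDH count was added after the fall of GAPDH was seen and holds GAPDH itself at 0, so it has no value there. It moved the median of all genes by 1.10. Over all genes 14465 were called higher and 418 lower, in place of 4890 and 5178, of the members 33 and 1, of the enzymes 17 and 0 and of the HIF targets outside glycolysis 7 and 1. The sign turned for ALDOC (0.413), PGK1 (0.977), ENO2 (0.182), PDK3 (0.156, not called), PFKFB2 (0.725), PFKFB4 (0.303), HIF1A (0.789), EPAS1 (0.838), BNIP3L (0.87) and VEGFA (0.981). These turns follow from the construction, a common shift close to the fall of GAPDH. DDX41 (-0.897) and CA9 (-1.368) stayed lower, and pair ratios do not depend on scaling.

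The replicate numbers did not pair the libraries. Deviations of libraries with the same number correlated at -0.0524 to 0.0446, and 0 of 5 siDDX41 libraries correlated best with their own number. With the number as a block, 4790 genes were called higher and 5097 lower in place of 4890 and 5178, and the members stayed at 18 higher and 12 lower. For the pair ratios, the exact sign-flip test over 5 such pairs cannot reach 0.05, so its loss of the 9 calls says nothing about them. Depth limited CA9, ADM and ANKRD37, with at most 36, 44 and 75 counts per library.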

Other observations

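GAPDH is often used to scale other transcripts, and 14 further genes used in that way were listed after its fall was seen. The 13 that could be tested moved between -1.82 and 0.56 on the log2 scale, against -1.10 for GAPDH. Of these, 5 were called higher, 5 lower and 3 neither (12, 1 and 0 when scaled to GAPDH). Over all genes tested, 30.3% were called higher and 32.1% lower. HPRT1, of purine salvage, had the lowest value, with 42.2 ± 1.66 CPM in siCtrl and 11.9 ± 1.23 CPM in siDDX41 (SD, n = 5; log2 fold change -1.82, SE 0.055, edgeR adjusted p = 3.92e-22). ACTB, which encodes beta-actin, had 7327 ± 257 CPM in siCtrl and 5993 ± 238 CPM in siDDX41 (log2 fold change -0.29, SE 0.028, edgeR adjusted p = 2.46e-10), and TFRC, the transferrin receptor, 564 ± 15.7 CPM in siCtrl and 828 ± 24.5 CPM in siDDX41 (log2 fold change 0.56, SE 0.027, edgeR adjusted p = 2.85e-17). Among those not called were TBP and YWHAZ, at 0.08 and 0.06. TUBB was listed at 0 in each library, which may come from the counting and does not show that it is not expressed.

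Of 6 epithelial markers, 4 were tested and 2 were called lower, both basal keratins (also when scaled to GAPDH, where the other 2 were called higher). KRT14 had 17.2 ± 1.04 CPM in siCtrl and 1.78 ± 0.613 CPM in siDDX41 (log2 fold change -3.27, SE 0.11, edgeR adjusted p = 1.38e-18), and KRT5 had 5.24 ± 0.290 CPM in siCtrl and 0.488 ± 0.121 CPM in siDDX41 (log2 fold change -3.41, SE 0.14, edgeR adjusted p = 1.43e-18). KRT5 passed the filter on low counts through its siCtrl libraries, as 3 of its 5 siDDX41 libraries reached the cut-off, which does not suffice. EPCAM was not called, with 7.99 ± 0.447 CPM in siCtrl and 8.31 ± 0.742 CPM in siDDX41 (log2 fold change 0.06, SE 0.074, edgeR adjusted p = 0.507). The summed level of the list was 30.3, 29.8, 32.5, 31.1 and 33.3 CPM in siCtrl replicates 1 to 5 and 11.5, 13.9, 11.6, 11.1 and 10.7 CPM in siDDX41 replicates 1 to 5, with KRT14 the most abundant in siCtrl and EPCAM in siDDX41, and GRHL2 at or near 0 in both groups. The part of these genes in the other results was not tested.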
